A study of Mus musculus with 4 samples.

Results

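The genes described here encode the proteins of the cytosolic ribosome. They were taken by name from the deposited count table: protein-coding genes called Rpl or Rps with a number and an optional a, l, x or y, together with Rplp0, Rplp1, Rplp2 and Rpsa. The S6 kinase genes, Rps27l and pseudogenes were left out. This gave 80 of 56748 gene IDs, 50 of the large subunit and 30 of the small subunit. The rule used names alone and no measured value. Genes of other names that also give ribosomal proteins are not matched by it, among them Fau, Rack1 and Rps3a1, and these are described separately as partner genes.

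The study sequenced bulk RNA of fibroblasts grown from mouse prostate, as 4 libraries with 1 per condition. Cells were labelled PBS (the saline control) or BuOE, each without radiation or with it, and the latter are called irradiated PBS and irradiated BuOE. All cells came from male mice of 8 to 10 weeks, given as C57BL/6 in the protocol and as CB57BL/6 in the genotype label. None of the labels names a transgene or a mutation. Irradiated mice received 37.5 Gy to the pelvis behind lead shielding, as fractions of 7.5 Gy over 5 days at 1.2 Gy/min. BuOE stands in the chemical name of the study's compound, a metalloporphyrin with superoxide dismutase activity that carries manganese. Its dose, its timing and whether mice or cultures received it are not given in the labels, nor is the number of mice behind a culture. Irradiated cells were taken from the animal after radiation and then grown in medium with serum, so the measured RNA is that of the culture and not of the irradiated gland.

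A mammalian ribosome holds 1 copy of nearly every ribosomal protein, so cells need their proteins in matched amounts. Their mRNAs are short and abundant, and most begin with a C followed by a run of pyrimidines, the 5′ terminal oligopyrimidine (TOP) motif. TOP mRNAs are the main mRNAs whose translation is controlled by the kinase mTORC1 through the binding protein Larp1. Free Rpl5 and Rpl11 bind Mdm2, the ubiquitin ligase of p53, which links ribosome assembly to the p53 response. In fibroblasts, demand for ribosomes is known to follow growth and matrix production.

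Start-site windows were read from RefSeq promoters (build GRCm38.p6), which matched 60 of the 80 genes. They are printed 5′ to 3′ on the gene's own strand, from 35 bases before the annotated start to 25 bases from it on, and capitals mark the run of pyrimidines nearest to the start, from its first C on, in which a C followed by at least 4 pyrimidines lies within 10 bases of the start. Pyrimidines before that C stay in lower case, and both starts are shown where a gene has 2. Shown first are genes with the highest and the lowest ratios of irradiated BuOE against BuOE (Rps27 and Rpl22 against Rps2, Rpl7a and Rps9), then genes with high ratios of irradiated PBS against PBS (Rpl39 and Rps15a), and last genes outside the set that are known TOP genes (Fau, Rack1, Gas5 and Eef1a1).
Rps27, chr3:90213624-90213683, minus strand: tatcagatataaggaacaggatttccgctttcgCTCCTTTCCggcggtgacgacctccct
Rpl22, its first annotated start, chr4:152325691-152325750, plus strand: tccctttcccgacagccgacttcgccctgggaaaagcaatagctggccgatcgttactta
Rpl22, its second annotated start, chr4:152324401-152324460, plus strand: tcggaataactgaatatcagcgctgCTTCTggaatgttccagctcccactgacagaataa
Rps2, chr17:24720028-24720087, plus strand: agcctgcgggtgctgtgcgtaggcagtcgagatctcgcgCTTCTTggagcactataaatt
Rpl7a, chr2:26910772-26910831, plus strand: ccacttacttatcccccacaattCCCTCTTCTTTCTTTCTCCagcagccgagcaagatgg
Rps9, chr7:3704006-3704065, plus strand: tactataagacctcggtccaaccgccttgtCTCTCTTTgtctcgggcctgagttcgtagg
Rpl39, chrX:37085198-37085257, minus strand: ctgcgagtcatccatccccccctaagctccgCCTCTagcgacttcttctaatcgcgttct
Rps15a, chr7:118116123-118116182, minus strand: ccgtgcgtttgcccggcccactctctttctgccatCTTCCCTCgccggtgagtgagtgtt
Fau, chr19:6057912-6057971, plus strand: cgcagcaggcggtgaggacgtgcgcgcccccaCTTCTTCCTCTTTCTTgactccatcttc
Rack1, chr11:48800325-48800384, plus strand: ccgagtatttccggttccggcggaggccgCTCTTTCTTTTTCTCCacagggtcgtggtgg
Gas5, its first annotated start, chr1:161034566-161034625, plus strand: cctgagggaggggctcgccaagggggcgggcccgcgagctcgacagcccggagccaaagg
Gas5, its second annotated start, chr1:161035131-161035190, plus strand: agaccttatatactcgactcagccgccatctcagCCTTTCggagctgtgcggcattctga
Eef1a1, chr9:78481700-78481759, minus strand: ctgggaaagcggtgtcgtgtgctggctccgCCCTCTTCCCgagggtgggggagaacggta
Rpl22 and Gas5 have no such run at the first start and one at the second, and at Rps27 and Rps15a it lies at or within 2 bases of the annotated start. Rps2, with the lowest ratio, and Rps27, with one of the highest, both hold a run.

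The depth, as the sum of deposited counts, was 29.7 M reads for PBS, 28.9 M for BuOE, 35.9 M for irradiated PBS and 25.0 M for irradiated BuOE. Values are CPM (counts scaled by library size) with TMM factors, and ratios between libraries are on the log2 scale with a prior count of 2. A mean of at least 1 CPM was passed by 14365 genes, among them 77 of the 80 ribosomal protein genes. With 1 library per condition no comparison of 2 libraries has a test, and the 95% interval of a ratio covers counting error only, not the spread between animals or cultures. The 3 genes below the filter are tissue-restricted copies of other genes of the set. Rpl10l, an intronless testis copy of Rpl10, had 0 counts in every library, where 3 counts would equal 0.0835 to 0.12 CPM. Rpl3l, the striated muscle copy of Rpl3, had 0, 4, 2 and 2 counts in the order PBS, BuOE, irradiated PBS and irradiated BuOE. Rpl39l, best known from male germ cells, had 3, 0, 1 and 2 counts in the same order.

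With PBS alone, the ribosomal protein genes together took 3.27% of all counts, with an exact binomial (Clopper-Pearson) interval of 3.268% to 3.281%. Their share was 3.04% with BuOE (3.032% to 3.044%) and 3.18% with PBS and radiation (3.170% to 3.182%). With BuOE and radiation it was 4.44% (4.433% to 4.449%). The first 3 libraries lay close together, and the library with both treatments stood above them. Large subunit genes made up 1.93%, 1.82%, 1.89% and 2.67% of the counts in the order PBS, BuOE, irradiated PBS and irradiated BuOE. Small subunit genes made up 1.34%, 1.22%, 1.29% and 1.77%. Both subunits had their lowest share with BuOE alone and their highest with BuOE and radiation. The ratio of large to small subunit counts was 1.437, 1.486, 1.461 and 1.512. The median gene of the set stood at 408, 359, 403 and 569 CPM. Because the libraries are from bulk cultures, fewer cells of a type and less RNA per cell cannot be told apart.

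**Figure D1:**
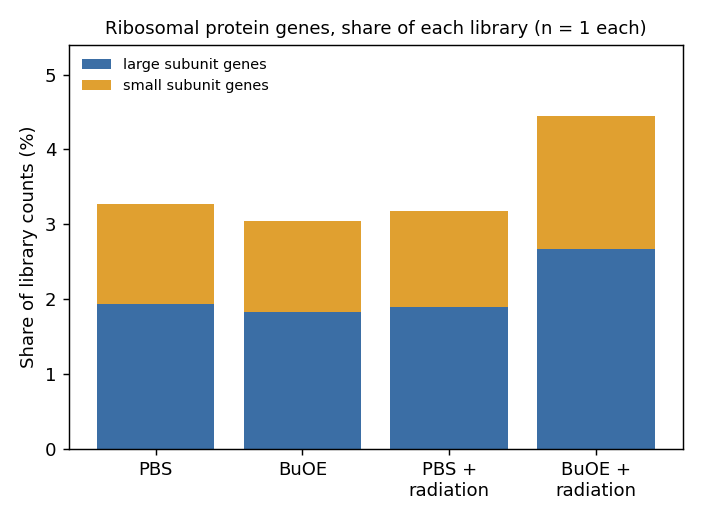
Share of each library's counts (vertical axis, percent) held by ribosomal protein genes in the 4 libraries, with large subunit genes in blue and small subunit genes in orange, 1 library per bar. The irradiated BuOE bar reaches 4.44%, and the other bars reach 3.04% to 3.27%.

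Levels within the set were compared per kilobase of mRNA, averaged over the 4 libraries. The median gene had 538 CPM per kilobase, and the quartiles were 312 and 794. Rpl41, which encodes a very short basic peptide of the large subunit, was highest at 1114 CPM per kilobase. It was followed by Rps2 (a protein near the mRNA entry channel) at 1092, Rplp1 (a stalk protein) at 1025, Rpl32 at 941 and Rps14 at 935. Neighbours in this order cannot be separated, since each library had 1 culture and the order changed from library to library: Rps27 was highest of all in the irradiated BuOE library at 1513 and stood at 640 in the PBS library. The bottom of the order was formed by Rpl36al at 2.53, Rpl24 at 3.73 and Rps10 at 5.61 CPM per kilobase, far under the next genes, Rpl13a at 51.1 and Rps15a at 57.8. Other genes cover 47.0% of the exon bases of Rpl24, 28.7% of Rps10, 24.5% of Rpl36al and 35.4% of Rpl13a. Overlap was counted without regard to strand and over the exons of all annotated transcripts. It was 62.3% for Rpl23a, at 807 CPM per kilobase, and 66.2% for Rpl35, at 233. These genes overlap different kinds of neighbours, so the percentages are not directly comparable. The part that shared or multi-mapping reads play in the low levels was not tested. The Rps15a value rests on an annotated mRNA of 5179 bases, the longest of the set, whose median is 799 bases. Values of these genes are therefore uncertain. Across the 77 genes, log2 levels per kilobase of any 2 libraries correlated with a Pearson r of 0.989 to 0.998, as a description of genes that share the same length and mapping properties.

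**Figure D2:**
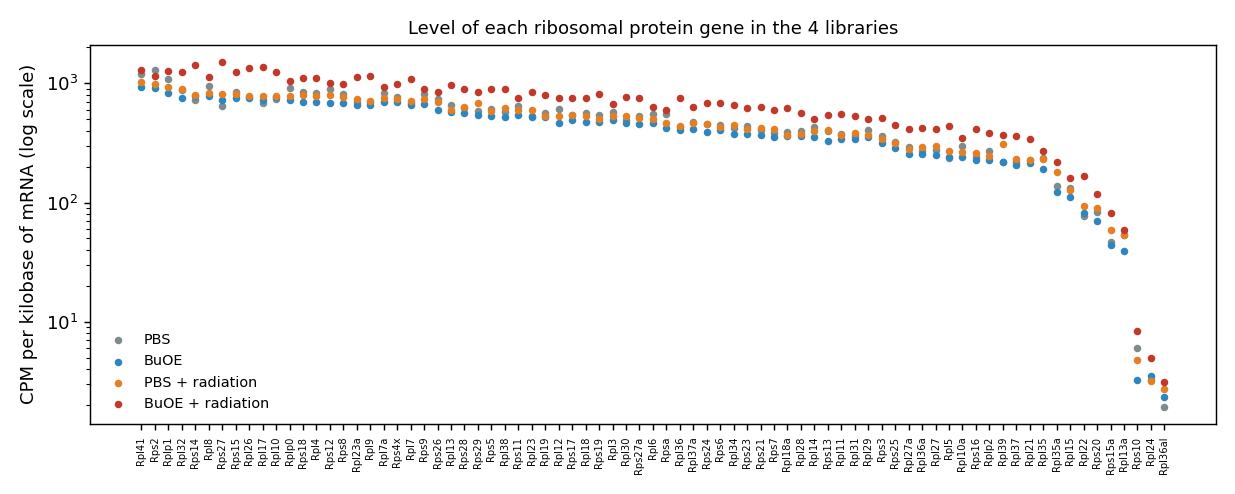
Level of each of the 77 ribosomal protein genes in CPM per kilobase of mRNA (vertical log axis), sorted by the mean, with 1 point per library. Most genes lie within a few-fold of each other with the irradiated BuOE point on top, and Rps10, Rpl24 and Rpl36al lie far below the rest.

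The first comparison, irradiated PBS against PBS, asks what radiation left in cultured cells without BuOE. The set was near its PBS level: the median log2 ratio was -0.03, next to 0.00 over all genes tested. Of the 77 genes, 33 were above 0 (50.4% of all genes were) and 44 below (49.6%). None passed 1.5-fold in either direction, which 10.9% of all genes did upward and 3.56% downward. Such passes were rarer among abundant genes: at means of 100 CPM or more, 88 of 2370 genes of any kind passed upward and 35 downward. The interquartile range was 0.19 for the set and 0.42 for all genes. At means of 100 CPM or more it was 0.19 for 72 genes of the set and 0.31 for 2370 genes of any kind.

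Among genes of at least 10 CPM the highest ratio was that of Rpl39, a small protein that lines the exit tunnel. It had 133 CPM in the PBS library and 190 in the irradiated PBS library, a log2 ratio of 0.52 with an interval of 0.46 to 0.57. Rpl35a went from 68.7 to 89.4 CPM (0.38, interval 0.30 to 0.46). Rps15a stood at 243 and 307 CPM (0.34, interval 0.29 to 0.38). At the other end was Rps2, at 1294 CPM in the PBS library and 989 in the irradiated PBS library, a ratio of -0.39 (interval -0.41 to -0.37). Rpsa, which is also known as the laminin receptor, gave -0.25 (interval -0.27 to -0.23), and the stalk base Rplp0 gave -0.22 (interval -0.25 to -0.20). These are the ends of the range; the quartiles of the set were -0.10 and 0.09. The intervals lay above 0 for 24 genes, below 0 for 36 and included 0 for 17, which counts sampling noise alone. No share over all genes stands beside these counts, and intervals are narrow for genes with many counts, so they do not set the genes apart.

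Within this comparison the ratio varied with base composition and with level. Across the 77 genes, the GC content of the mRNA and the log2 ratio had a Pearson r of -0.49, against -0.19 over 9663 other protein-coding genes above a mean of 10 CPM. By rank (Spearman) these values were -0.54 and -0.33. In the 72 genes with means of 100 CPM or more, the ratio had a Pearson r of -0.48 with GC content and -0.48 with log2 mean CPM. The 72 genes with means of 100 CPM or more were split into 3 equal groups by GC content. In the GC-poorest group (24 genes with 41.3% to 49.3% GC) the median ratio was 0.05. In the GC-richest group (24 genes with 53.1% to 60.8% GC) it was -0.11. Across the 77 genes the Pearson r with GC content was -0.39 for BuOE against PBS and -0.09 for irradiated BuOE against BuOE. It was 0.03 for irradiated BuOE against irradiated PBS. In the 72 genes with means of 100 CPM or more these values were -0.32, -0.24 and -0.02, in the same order. All points of a comparison share the same 2 libraries, so these are descriptions, and the part that composition or level plays in the ratios was not tested.

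Radiation within the BuOE arm gave the largest values of the set. In irradiated BuOE against BuOE the median log2 ratio was 0.69, a 1.62-fold higher level, while the median over all genes was -0.03. All 77 genes were above 0 (46.2% of all genes) and none below (53.8%). At least 1.5-fold higher were 55 of the 77 (8.3% of all genes), and at least 2-fold higher were 3 (2.27%). None was lower by 1.5-fold, against 11.4% of all genes. At means of 100 CPM or more, 53 of 72 genes of the set and 195 of 2370 genes of any kind were at least 1.5-fold higher. At least 1.5-fold lower were 0 and 82. The count of 55 was 38 with library size alone and 58 with DESeq2 size factors. The lower and upper quartiles were 0.55 and 0.77, and the interquartile range of 0.22 compares with 0.53 for all genes; at means of 100 CPM or more the values were 0.21 and 0.42. Counting intervals lay above 0 for 76 genes, and the remaining one, Rpl36al, had an interval of -0.25 to 1.12. Again no share over all genes stands beside this count, and it does not set the genes apart.

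Rps27, a zinc finger protein of the small subunit, had 221, 249, 278 and 522 CPM in the order PBS, BuOE, irradiated PBS and irradiated BuOE. Its ratio of irradiated BuOE against BuOE was 1.07 (interval 1.03 to 1.11), and the irradiated BuOE library stood well above the other libraries, which lay close together. Rpl22, an RNA-binding protein dispensable for general protein synthesis, followed with 157, 166, 193 and 345 CPM in the same order and a ratio of 1.05 (interval 1.00 to 1.10). Rpl17, at the rim of the exit tunnel, had 531, 559, 610 and 1066 CPM and a ratio of 0.93 (interval 0.90 to 0.96). In these genes the irradiated PBS library was also above the PBS library, though by less. The smallest ratio belonged to Rps2, with 1294, 919, 989 and 1158 CPM and a value of 0.33 (interval 0.31 to 0.36). Rpl7a gave 0.42 (interval 0.39 to 0.45) and Rps9 gave 0.43 (interval 0.40 to 0.46). The very low Rps10 had the highest value of the whole set, 1.32, but from 88 counts in the BuOE library and 179 in the irradiated BuOE library, so its interval was 0.97 to 1.73.

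Genes of known roles followed the set. The stalk, which recruits elongation factors, is built of Rplp0, Rplp1 and Rplp2. Rplp0 had 1246, 991, 1066 and 1415 CPM in the order PBS, BuOE, irradiated PBS and irradiated BuOE. Rplp1 had 537, 410, 462 and 636 CPM, and Rplp2 had 261, 221, 239 and 372 CPM. All 3 stalk genes were lowest in the BuOE library and highest in the irradiated BuOE library, with ratios between these 2 libraries of 0.51, 0.63 and 0.75. The 5S particle, which binds Mdm2 when it is not built into ribosomes, holds Rpl5 and Rpl11. Rpl5 had 485, 491, 555 and 903 CPM in the same order, a ratio of 0.88 (interval 0.85 to 0.91) in irradiated BuOE against BuOE, although other genes cover 26.7% of its exon bases. Rpl11 had 316, 284, 309 and 460 CPM, a ratio of 0.69 (interval 0.65 to 0.73). Mdm2 itself stood at 152, 140, 130 and 195 CPM and was also highest in the irradiated BuOE library.

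Rps6, the target of the S6 kinases, had 391, 357, 381 and 597 CPM, a ratio of 0.74 (interval 0.71 to 0.78) in irradiated BuOE against BuOE. Rps27a, which is made as a fusion with ubiquitin, also gave 0.74 from 359 and 600 CPM. Rpl26 and Rpl23, both known to bind p53 pathway RNA or protein, gave 0.84 and 0.69. Rpl10, which joins the large subunit late in its assembly, gave 0.68. Rps19 and Rps14, genes known from inherited or acquired failure of red cell formation, gave 0.78 and 0.87. Rps3, which also has a role in DNA repair, gave 0.68, and Rpl3, near the peptidyl transferase centre, gave 0.46. Each of these genes was higher with both treatments than with BuOE alone, by amounts from 0.46 to 0.87. Large subunit genes had a median of 0.69 (47 genes) and small subunit genes of 0.72 (30 genes).

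**Figure D3:**
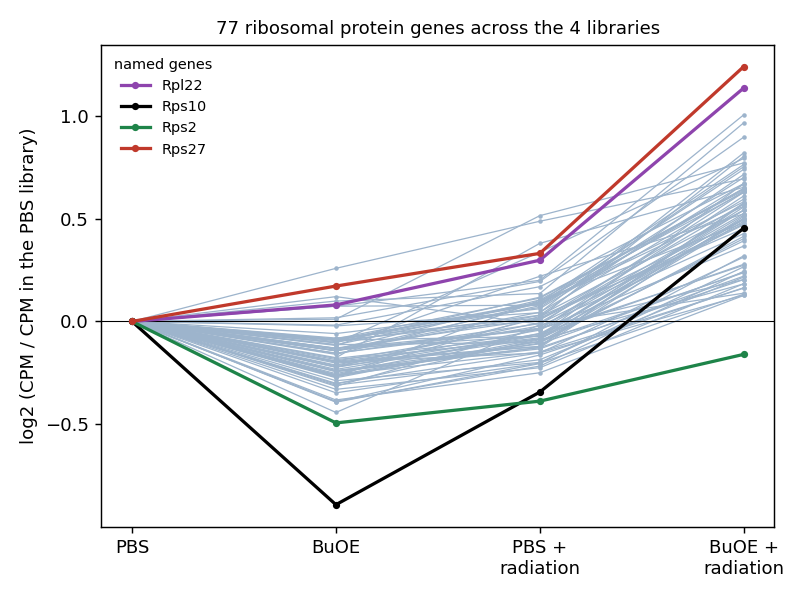
Level of each of 77 ribosomal protein genes relative to the PBS library (vertical axis, log2 of CPM over CPM in PBS, without a prior count) in the 4 libraries, with 1 line per gene. Most lines dip in the BuOE library and end highest in the irradiated BuOE library, Rps2 (green) ends below 0 and the low-count Rps10 (black) dips deepest.

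BuOE against PBS, without radiation, put the set slightly lower. The median log2 ratio was -0.18 (0.88-fold), next to -0.01 over all genes. Below 0 were 68 of the 77 genes (51.2% of all genes) and above 0 were 9 (48.8%). At least 1.5-fold lower was 1 gene, the low-count Rps10 (10.6% of all genes), and none was at least 1.5-fold higher (16% of all genes). Of 2370 genes of any kind with means of 100 CPM or more, 206 were at least 1.5-fold lower and 164 higher. The interquartile range was 0.17, against 0.62 for all genes, and at means of 100 CPM or more it was 0.16, against 0.45. Among genes of at least 10 CPM, Rps2 gave -0.49 (interval -0.52 to -0.47), Rpl13a -0.44 (interval -0.55 to -0.34) and Rpl12 -0.39 (interval -0.42 to -0.36). At the upper end stood Rps27 with 0.17 (interval 0.12 to 0.22), Rps14 with 0.10 (0.06 to 0.13) and Rpl22 with 0.08 (0.02 to 0.14). With library size alone as the scale the median was -0.09, so its size depends on the scaling.

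With radiation in both libraries, BuOE went with higher levels. In irradiated BuOE against irradiated PBS the median log2 ratio was 0.52 (1.43-fold), while the median over all genes was -0.07. All 77 genes were above 0 (43.8% of all genes) and none below (56.2%). At least 1.5-fold higher were 26 (11%), none was 2-fold higher (3.81%) and none was lower by 1.5-fold (14.6%). At means of 100 CPM or more, 24 of 72 genes of the set and 203 of 2370 genes of any kind were at least 1.5-fold higher. At least 1.5-fold lower were 0 and 165. The count of 26 was 20 with library size alone, 37 with TMM factors of the filtered genes and 39 with DESeq2 size factors. Rps27 again led with 0.91 (interval 0.87 to 0.95), from 278 CPM with PBS and 522 with BuOE. Rpl22 and Rps14 both gave 0.83, the latter from 479 and 852 CPM. Lowest among genes of at least 10 CPM were Rpl13a with 0.15 (interval 0.05 to 0.25), Rps2 with 0.23 (0.20 to 0.25) and Rpl35 with 0.24 (0.19 to 0.29). Other genes cover 66.2% of the exon bases of Rpl35. The 4 comparisons share libraries in pairs, so the irradiated BuOE library enters both ratios in which the set was higher.

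Put together as the radiation ratio in the BuOE arm minus that in the PBS arm, the median difference was 0.70 over the set and -0.03 over all genes, and 76 of 77 genes were above 0 (47% of all genes). The exception was Rpl36al at -0.05, with 1.02 to 1.65 CPM in the 4 libraries, and the next lowest was Rpl39 at 0.25. Rpl12 reached 0.92, Rpl13 and Rps19 0.90, and the low-count Rps10 reached 1.66. In the ranking of the 4 libraries gene by gene, the irradiated BuOE library was highest for 76 of 77 genes (28.4% of all genes). The exception was Rps2, for which the PBS library was highest (32.2%), and neither the BuOE library (21.9%) nor the irradiated PBS library (17.5%) was highest for any gene of the set. The BuOE library was lowest for 68 (20.5%), the PBS library for 8 (30.1%) and the irradiated PBS library for 1 (14.1%), which was Rpl24. The order irradiated BuOE, PBS, irradiated PBS, BuOE was the most frequent, with 42 genes, followed by irradiated BuOE, irradiated PBS, PBS, BuOE with 25.

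**Figure D4:**
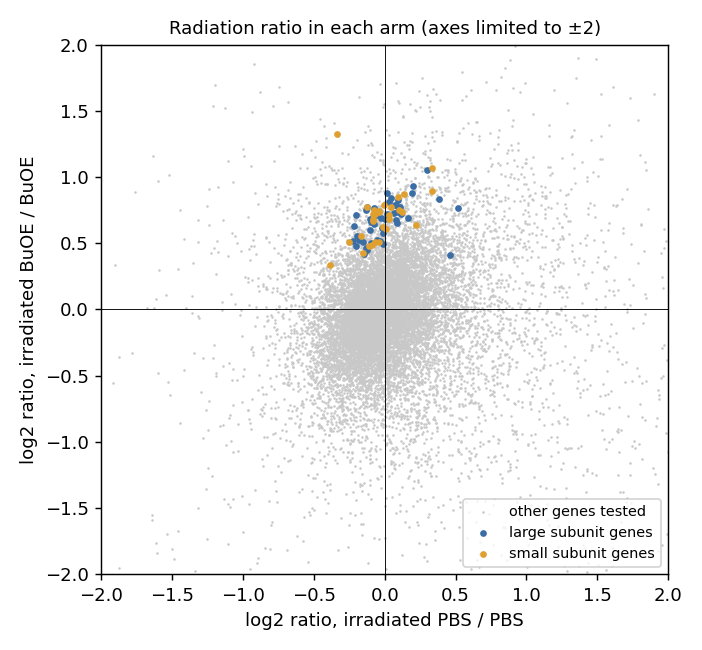
Log2 ratio of irradiated BuOE against BuOE (vertical) and of irradiated PBS against PBS (horizontal), 1 point per gene, with large subunit genes in blue, small subunit genes in orange and other genes in grey. The ribosomal protein genes form a tight group around -0.03 on the horizontal and 0.69 on the vertical axis; axes end at 2 in either direction, which leaves out more extreme grey points.

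Features that the naming rule did not use were examined next. The runs of C followed by at least 4 pyrimidines began exactly at the annotated start in 13 of 60 ribosomal protein genes (21.7%) and in 2.65% of 16440 other protein-coding genes with a window. Within 10 bases of the start on the gene's strand they began in 37 (61.7%) and 35.1%. In the whole 300-base promoter window, on either strand, the Ets-like motif CGGAAG was found in 68.3% and 24.1%. The E-box CACGTG was found in 10% and 9.17%, TATAAA in 10% and 14.3%, and GGGCGG in 60% and 51%. A match is only a match of letters. The 34 tested genes with a run near the start had a median ratio of 0.71 in irradiated BuOE against BuOE, and the 23 without had 0.68. In the other comparisons the medians with and without were -0.07 and -0.01 (irradiated PBS against PBS), -0.22 and -0.15 (BuOE against PBS), and 0.52 and 0.51 (irradiated BuOE against irradiated PBS). The split rests on annotated starts, and the starts used in these cultures were not measured. It therefore does not sort the genes into those with and without a TOP motif.

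Many ribosomal protein genes carry small nucleolar RNAs in their introns. The 29 tested genes with a snoRNA gene inside had a median of 0.71 in irradiated BuOE against BuOE, and the 48 without had 0.69. The 185 other protein-coding genes with a snoRNA gene inside had 0.00. Other short genes had lower medians: 196 other protein-coding genes with an mRNA under 750 bases and above a mean of 10 CPM had a median of 0.11, and 253 with 750 to 999 bases had 0.09. The 2370 genes of any kind with means of 100 CPM or more had 0.07. The 72 ribosomal protein genes above that level had 0.70.

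Partner genes, whose products sit on the ribosome under other names, followed the set. Fau, a fusion of a ubiquitin-like protein with small subunit protein S30, had 249, 256, 252 and 466 CPM in the order PBS, BuOE, irradiated PBS and irradiated BuOE, a ratio of 0.86 (interval 0.82 to 0.91) for irradiated BuOE against BuOE. Rack1, a scaffold on the small subunit, had 743, 638, 714 and 1021 CPM (0.68, interval 0.65 to 0.70). Rps3a1 had 629, 616, 688 and 1047 CPM (0.77, interval 0.74 to 0.79). The irradiated BuOE library was highest for these 3 genes. The BuOE library was lowest for Rack1 and Rps3a1, as for most of the set, but not for Fau, which was lowest in the PBS library. Relatives not counted as core proteins differed more. Rps27l, a p53 target, had 72.4, 60.2, 69.5 and 86.1 CPM, a ratio of 0.52. Rpl22l1 had 24.6, 23.5, 32.2 and 44.3 CPM, a ratio of 0.91. Rpl7l1, whose product works in nucleolar assembly of ribosomes, had 135, 91.4, 115 and 80.4 CPM, was lowest in the irradiated BuOE library and gave -0.18. Ribosomal protein pseudogenes held 0.0118%, 0.0114%, 0.0111% and 0.0137% of the counts.

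Other TOP genes were examined as a list of 21 outside the set. It shares Fau and Rack1 with the partner genes, 5 genes with the elongation factors, 5 with the initiation factors and Npm1 with the biogenesis factors, so these lists are not independent. The TOP list had medians of -0.05 (irradiated PBS against PBS), 0.53 (irradiated BuOE against BuOE), -0.21 (BuOE against PBS) and 0.40 (irradiated BuOE against irradiated PBS). In irradiated BuOE against BuOE, 21 of 21 were above 0 (46.2% of all genes) and 10 were at least 1.5-fold higher (8.3%). They ranged from Hnrnpa1 at 0.26 to Fau at 0.86. Host genes of snoRNAs, whose spliced RNAs often begin with the motif, gave 0.10, 1.09, -0.23 and 0.65 over 13 genes. Gas5, the best known of them, had 85.3, 77.1, 94.9 and 182 CPM, and Epb41l4aos had the highest ratio of the list, 1.65, from 9.04 and 28.4 CPM. The irradiated BuOE library was highest for 16 of the 21 TOP genes and 11 of the 13 snoRNA host genes (28.4% of all genes). The PBS library was highest for the other 5 TOP genes (Npm1, Nap1l1, Hnrnpa1, Ybx1 and Eef1d). The elongation factor list, which also holds Eef2k (the kinase of Eef2) and Eef1e1, gave -0.10, 0.27, -0.22 and -0.02 over 10 genes. In irradiated BuOE against BuOE, 6 of them were above 0 and 4 below. Eef2, which moves the ribosome along the mRNA, was highest at 0.53, and Eef1a1, which brings aminoacyl-tRNA, gave 0.50. Eef1b2, Eef1d and Eef1g gave 0.43, 0.40 and 0.46, and Eif5a gave 0.14. Below 0 were the neuronal and muscle form Eef1a2 at -3.51, Eif5a2 at -0.45, Eef2k at -0.40 and Eef1e1 at -0.08. Initiation factors gave -0.08, 0.24, -0.19 and -0.06 over 41 genes, from Eif2b4 at -0.36 to Eif4a2 at 0.96 in irradiated BuOE against BuOE.

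The genes that build ribosomes had lower medians than the ribosomal protein genes. Ribosome biogenesis factors, 77 genes by coincidence, had medians of -0.20, 0.05, -0.51 and -0.29 in the order irradiated PBS against PBS, irradiated BuOE against BuOE, BuOE against PBS, and irradiated BuOE against irradiated PBS. At least 1.5-fold lower in BuOE against PBS were 35 of them (10.6% of all genes), down to Dkc1 at -1.11, the pseudouridine synthase of ribosomal RNA. Nop56, a core protein of the methylation guide particles, had 194, 98.2, 151 and 82.6 CPM and was low in both BuOE libraries. Ncl, the nucleolar protein nucleolin, had 1138, 736, 1075 and 896 CPM. The exception at the upper end was Nop53, with 98.1, 120, 103 and 239 CPM. RNA polymerase I and its factors gave -0.23, -0.03, -0.43 and -0.16 over 20 genes, and Polr1a, its largest subunit, had 152, 84.9, 115 and 81.1 CPM. The median of the ribosomal protein genes was above that of the biogenesis factors and of the polymerase I genes in all 4 comparisons, a difference that was not tested. The PBS library was highest for 58 of 77 biogenesis factors (32.2% of all genes), and the irradiated BuOE library for 9. In the difference between the arms these lists had the direction of the set at a smaller size: 70 of 77 biogenesis factors were above 0 (47% of all genes), with a median of 0.24, and 14 of 20 polymerase I genes, with a median of 0.26. Mitochondrial ribosomal proteins, which serve a separate ribosome, gave -0.17, 0.01, -0.30 and -0.14 over 78 genes, and 59 of them were above 0 in the difference between the arms, with a median of 0.20. For initiation factors this was 34 of 41, with a median of 0.31. Regulators of ribosomal protein expression gave -0.10, 0.08, -0.21 and 0.02 over 20 genes, among them Larp1 with 451, 348, 407 and 376 CPM and Myc with 121, 88.5, 111 and 128 CPM.

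**Figure D5:**
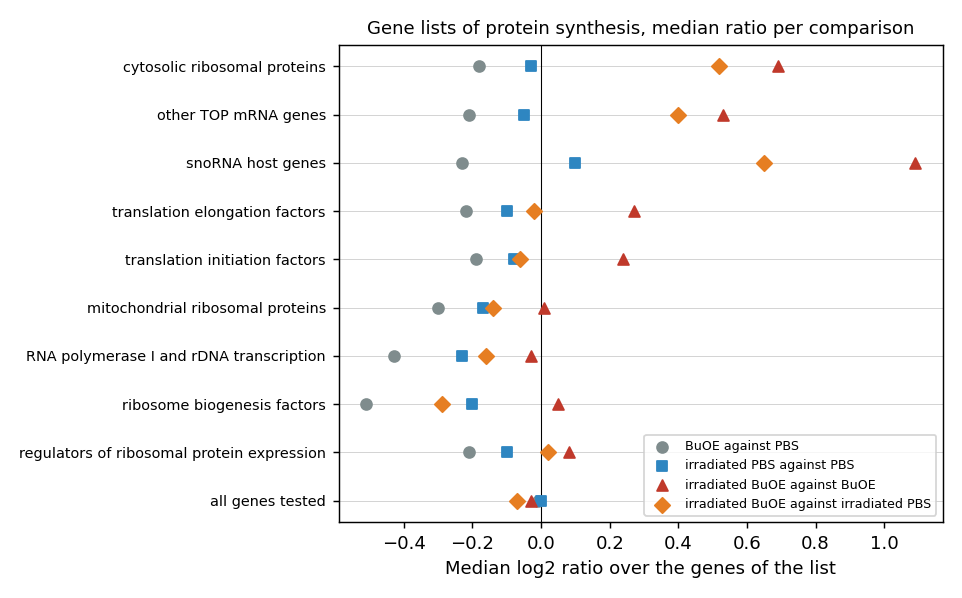
Median log2 ratio (horizontal axis) of each gene list in the 4 comparisons, 1 symbol per comparison, with all genes tested in the bottom row. The ribosomal proteins, other TOP genes and snoRNA host genes have medians of 0.53 to 1.09 for irradiated BuOE against BuOE, and biogenesis factors and polymerase I genes lie at 0.05 and -0.03.

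The 5 genes outside the set whose ratios to the PBS library lay nearest to the set's medians (-0.18 for BuOE, -0.03 for irradiated PBS and 0.53 for irradiated BuOE) were Ccnk, Rack1, Rnf2, Jmjd6 and Rassf1, at Euclidean distances of 0.077, 0.082, 0.083, 0.083 and 0.091 over these 3 values. Among 9665 candidates, 111 (1.15%) lay within 0.244, the median distance of the ribosomal protein genes themselves.

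The libraries also differed in other gene groups. Genes of mitochondrial DNA took 0.413%, 0.746%, 0.883% and 2.65% of counts in the order PBS, BuOE, irradiated PBS and irradiated BuOE. They were highest in the irradiated BuOE library like the set, but lowest in the PBS library, and the ribosomal protein share without them was 3.29%, 3.06%, 3.20% and 4.56%. Proliferation genes had a median log2 ratio of -1.40 in BuOE against PBS and -1.65 in irradiated BuOE against irradiated PBS over 17 genes, so they were low in both BuOE libraries and did not follow the ribosomal protein genes. All 10 fibroblast markers were measured, with a summed level of 8788, 7896, 11382 and 6830 CPM, lowest in the irradiated BuOE library. All 8 epithelial markers were measured too, with 3117, 4042, 2704 and 3939 CPM, so markers of another cell type were present in every culture. Summed levels were 409, 556, 681 and 616 CPM for 6 of 6 endothelial markers, 1137, 820, 1206 and 781 for 6 of 6 pericyte and smooth muscle markers, and 341, 362, 305 and 472 for 6 of 6 macrophage markers. They were 24.1, 403, 123 and 25.5 CPM for 6 of 6 neuronal markers, 78.9, 220, 154 and 129 for 5 of 5 Schwann cell markers and 297, 42.8, 68.5 and 72.8 for adipocyte markers, of which 4 of 5 passed the filter. Secretory markers (6 of 6) summed to 785, 548, 557 and 208 CPM, red cell markers (3 of 5) to 66.8, 12.2, 5.14 and 29.1 CPM, and none of 5 lymphocyte markers passed. By its sum, the macrophage list alone of these marker lists was highest in the irradiated BuOE library, as the ribosomal protein genes were. Gene by gene, that library was highest for 4 of 6 macrophage, 4 of 6 secretory and 3 of 6 pericyte and smooth muscle markers (28.4% of all genes). It was highest for 2 of 10 fibroblast, 2 of 8 epithelial and 1 of 6 endothelial markers, and for 0 of the other lists. The secretory median was 0.66 in irradiated BuOE against BuOE, with Sbp lowest at -5.06. The part of mitochondrial RNA, proliferation and these cell types in the ratios was not tested.

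A model with 1 term for radiation and 1 for BuOE was also fitted over the 4 libraries (edgeR, quasi-likelihood); it has 1 residual degree of freedom and takes the difference between the arms as error. The edgeR model called 0 of 77 genes for either term (0% of all genes), with a smallest adjusted p among them of 0.663 for radiation and 0.302 for BuOE. Its unadjusted p was below 0.05 for 5 of the 77 genes for radiation (1076 of all 14365 genes) and for 0 for BuOE (2954 of all 14365). The median fitted log2 change was 0.33 for radiation and 0.18 for BuOE. DESeq2 called 0 of 77 genes for radiation and 0 of the 76 to which it gave an adjusted p for BuOE. Its unadjusted p was below 0.05 for 10 genes of the set for radiation (661 over all genes) and 3 for BuOE (2165 over all genes). DESeq2 called 0.557% of 14365 genes higher and 0.223% lower for radiation, and 3.44% and 3.38% of 12694 genes for BuOE. With limma-voom the count was 0 as well. None of these models has a term for the difference between the arms.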

How the data were processed

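RNA-seq of 4 cultures was used as the deposited table of raw counts per gene, made with featureCounts; the submitters' processing notes give build GRCm39 and list Trim Galore 0.6.4, Salmon 1.4.0 and edgeR 4.2.2 with no role. Strand and multi-mapping settings are not given in the sources used here. Near-identical and overlapping genes are therefore uncertain. Groups came from the treatment labels, and no sample column was left unused. Symbols, biotypes, mRNA lengths, GC content and exon overlaps came from GENCODE M21 (GRCm38) and were joined to the counts by gene ID. Exon overlaps and snoRNA genes inside a gene rest on GRCm38 coordinates, not on those of GRCm39. Without a symbol were 4623 IDs, which held 0.682% to 1.285% of counts.

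TMM factors over all genes (edgeR 4.0.16, R 4.3.3) were 0.987 (PBS), 1.05 (BuOE), 0.992 (irradiated PBS) and 0.972 (irradiated BuOE). A mean of at least 1 CPM was required, and log2 ratios used a prior count of 2. Intervals are exact binomial at 95% and cover counting error only; reads carry no molecular identifiers here. The additive model was edgeR's quasi-likelihood test with Benjamini-Hochberg adjustment at 0.05; DESeq2 1.42.0 and limma 3.58.1 were alternatives. The additive model tests the 2 terms against the departure from additivity between 4 cultures. The log2 ratio and the edgeR model were run on simulated counts in which some genes were changed by radiation in both arms. No simulated gene was changed in a single arm, so this run does not bear on the difference between the arms. Named genes were, in each comparison, those of at least 10 CPM with the 3 highest and 3 lowest ratios, the 5 highest and 5 lowest levels per kilobase, a fixed set by role, the extremes of each list and the 5 nearest patterns; further genes were chosen after their values were seen. The genes of the set and all lists were chosen with earlier results of these data known. Alternatives were other scalings, filters, prior counts, denominators and membership. An alternative and list entries that needed an item not reported here were left out.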

Additional observations from a re-analysis of the deposited data

Results flagged for a closer look

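The 2 BuOE comparisons pointed in opposite directions. The median log2 ratio of the ribosomal protein genes was -0.18 for BuOE against PBS without radiation and 0.52 for irradiated BuOE against irradiated PBS. The 2 radiation comparisons also differed: the median was -0.03 for irradiated PBS against PBS and 0.69 for irradiated BuOE against BuOE. Each value compares 1 library with 1 library, and the difference between the comparisons was not tested. In both cases the irradiated BuOE library is the one that stands apart, and with 1 culture per condition a property of that culture and an effect of the combined treatment cannot be told apart.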

How the results depend on the processing

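No alternative turned the sign of a median. For irradiated BuOE against BuOE the median log2 ratio of 0.69 became 0.73 with DESeq2 size factors, 0.58 with library size alone, 0.67 with upper-quartile factors, 0.70 with a filter of 10 CPM and 0.68 as a mean. For irradiated BuOE against irradiated PBS the value of 0.52 became 0.59, 0.49 and 0.53 under the same 3 scalings, in that order. BuOE against PBS (-0.18) became -0.16, -0.09 and -0.15. Irradiated PBS against PBS (-0.03) became -0.04, -0.02 and -0.04, and -0.0049 as a mean. Of alternatives chosen after seeing the data, TMM factors of the filtered genes gave -0.04 (irradiated PBS against PBS), 0.74 (irradiated BuOE against BuOE), -0.17 (BuOE against PBS) and 0.58 (irradiated BuOE against irradiated PBS). Without genes overlapping others the 2 radiation comparisons gave -0.04 and 0.71, and with genes of at least 100 CPM only they gave -0.04 and 0.70. With Rps3a1, Fau and Rack1 added they gave -0.02 and 0.70. With no filter, 1 gene each passed 1.5-fold upward and downward in irradiated PBS against PBS, and 1 upward and 2 downward in BuOE against PBS, where the 10 CPM filter left 0 downward. Upward this was Rpl3l and downward Rpl39l, joined by Rps10 in BuOE against PBS. Rpl3l and Rpl39l had 0 to 4 counts in each library, so their ratios carry no weight.

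The share of counts in the order PBS, BuOE, irradiated PBS and irradiated BuOE was 3.29%, 3.06%, 3.20% and 4.56% without genes of mitochondrial DNA, and 3.35%, 3.12%, 3.25% and 4.56% of protein-coding counts. It was 3.43%, 3.20%, 3.34% and 4.69% with these 3 added genes (Rps3a1, Fau and Rack1) and 3.29%, 3.05%, 3.19% and 4.45% with pseudogenes. The additive model called 0 of the ribosomal protein genes under each alternative run; over all genes edgeR's BuOE term called 131 higher and 269 lower of 9870 with the 10 CPM filter, and 89 and 194 of 31783 with no filter. No paired analysis was possible because each condition has 1 library. For the same reason no library could be left out. Depth limits Rps10, Rpl24 and Rpl36al, the genes under 10 CPM. Differences between cultures of 1 condition were not measured.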

Other observations

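A list of 19 genes of ribosome stress and the p53 response had median log2 ratios of -0.03 for irradiated PBS against PBS, 0.48 for irradiated BuOE against BuOE, 0.31 for BuOE against PBS and 0.69 for irradiated BuOE against irradiated PBS. Cdkn1a, the cell cycle inhibitor p21, had 201, 354, 244 and 591 CPM in the order PBS, BuOE, irradiated PBS and irradiated BuOE. Gdf15, a secreted stress factor, had 10.4, 17.0, 4.88 and 33.2 CPM. Both were high in the 2 BuOE libraries and highest with radiation added. The irradiated BuOE library was highest for 18 of the 19 genes (28.4% of all genes), as for most ribosomal protein genes. In the difference between the arms 19 of 19 were above 0 (47% of all genes), with a median of 0.41. In BuOE against PBS 15 genes of the list were above 0 and 4 below, while most ribosomal protein genes were lowest with BuOE alone.

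Some copies of ribosomal protein genes fall outside the naming rule although the annotation classes them as protein-coding. Rpl9-ps6, a pseudogene by its symbol, had 74, 75, 79 and 100 counts in the same order, and Rps27rt, a retrogene of Rps27, had 22, 23, 19 and 28 counts.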
